A study of Homo sapiens with 5 samples.

Results

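WBP11 was lowered with siRNA in the DLD-1 line, which derives from a human colorectal adenocarcinoma, and the splicing of each intron was compared between the WBP11_RNAi library and the Control library. The members are all introns of that comparison whose intron depth plus spliced reads reached 10 in both libraries. They were 16068 introns in 5725 genes, out of 16629 introns listed for this pair and 34560 distinct introns over the whole series, and the other 561 fell under the minimum. WBP11_RNAi cells received 100 nM WBP11 siRNA for 72 h. Control cells have "None" as their treatment label, and the file header calls them control RNAi. The labels do not say whether a non-targeting siRNA was given, so the target and the transfection itself cannot be told apart. Both carry the label DLD-1 LacZeo, which the labels do not explain further, and are polyA RNA of cells under passage 10. Each group is 1 library, so differences between them could not be checked in replicates, no p-value is given, and the 95% intervals stand for counting error alone.

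An intron is removed when the spliceosome recognises the donor site at its 5' end and the acceptor site at its 3' end and joins the flanking exons. WBP11 is a nuclear protein that binds the spliceosome and protein phosphatase 1, and the tri-snRNP, built on the U4, U6 and U5 RNAs, is the particle that brings the catalytic RNAs to the substrate. An intron that stays in a polyadenylated transcript can keep that transcript in the nucleus or expose it to decay.

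Sequences of introns on which the results turn are shown with their first 6 and last 3 bases in capitals, which mark the donor and acceptor ends. They were read 5' to 3' on the sense strand from GENCODE release 29 transcripts (GRCh38, also called hg38) in which the intron lies inside an annotated exon. The opening 5 were among the largest rises in retention, the next 2 among the largest falls, and both TUBGCP6 introns lie in the same gene, where intron 18 rose and intron 23 differed by less than 10 points.
ZFYVE19 intron 10 of 10, chr15:40814071-40814147, plus strand: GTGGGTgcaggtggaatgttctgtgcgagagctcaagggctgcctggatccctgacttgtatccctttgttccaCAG
ATP13A1 intron 5 of 25, chr19:19656917-19656993, minus strand: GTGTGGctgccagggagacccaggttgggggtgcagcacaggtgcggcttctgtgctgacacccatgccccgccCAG
MUS81 intron 13 of 15, chr11:65865146-65865219, plus strand: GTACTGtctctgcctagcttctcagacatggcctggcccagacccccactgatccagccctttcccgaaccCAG
SEMA3B intron 12 of 16, chr3:50274935-50275011, plus strand: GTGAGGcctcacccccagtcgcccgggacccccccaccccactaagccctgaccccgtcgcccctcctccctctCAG
SREBF1 intron 8 of 18, chr17:17817137-17817255, minus strand: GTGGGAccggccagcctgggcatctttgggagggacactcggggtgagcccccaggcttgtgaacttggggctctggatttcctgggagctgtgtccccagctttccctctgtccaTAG
CXXC1 intron 4 of 14, chr18:50285929-50286021, minus strand: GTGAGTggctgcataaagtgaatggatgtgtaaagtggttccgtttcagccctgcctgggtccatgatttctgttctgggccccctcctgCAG
RBM28 intron 7 of 18, chr7:128335680-128335846, minus strand: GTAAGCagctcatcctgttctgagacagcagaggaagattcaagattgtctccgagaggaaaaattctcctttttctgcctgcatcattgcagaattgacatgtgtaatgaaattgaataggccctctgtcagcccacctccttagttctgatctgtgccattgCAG
TUBGCP6 intron 18 of 24, chr22:50219457-50219643, minus strand: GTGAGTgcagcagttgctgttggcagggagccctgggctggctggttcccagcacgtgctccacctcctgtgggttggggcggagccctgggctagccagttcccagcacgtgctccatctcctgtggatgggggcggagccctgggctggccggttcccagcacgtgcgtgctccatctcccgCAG
TUBGCP6 intron 23 of 24, chr22:50218118-50218188, minus strand: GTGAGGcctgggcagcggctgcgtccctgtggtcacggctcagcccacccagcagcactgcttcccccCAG

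Spliced reads over the listed introns totalled 2987572 in WBP11_RNAi and 3146434 in Control, a ratio of 0.950. Depth plus spliced reads behind an intron had a median of 101.4 in WBP11_RNAi and 112 in Control. The Control values were the same as in the SNW1 siRNA table at all 13412 introns that both tables list, within a depth of 0.01, so 1 control library serves both. Colorectal epithelial markers were listed for 7 of 14 genes and summed to 43864 spliced reads in WBP11_RNAi and 53442 in Control, of which KRT18, a keratin of simple epithelia, had 29320 and 37896. Leukocyte markers were listed for 2 of 8 genes, with 1111 reads in WBP11_RNAi and 1355 in Control, of which CORO1A, a coronin, had 1088 and 1316. Of the 8 fibroblast and 5 endothelial markers none was listed. A gene enters the table only through an intron kept in at least 1% of its transcripts in either library, so a marker that is not listed has no value here.

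The WBP11 transcript itself was low after its siRNA. At intron 7 of 11 (chr12:14793923-14794536, coding) WBP11 had 12 spliced reads in WBP11_RNAi and 176 in Control, and at intron 11 (chr12:14787499-14788950) 8 and 136. Scaled to the totals, the WBP11_RNAi library held 0.0675 of the control level (95% interval 0.0407 to 0.106). In the WBP11 transcripts that remained, intron 7 was kept in 8.97% in WBP11_RNAi and 0.124% in Control, a difference of 8.84 points (1.33 to 34.5), and intron 11 had too few reads after the siRNA to pass the minimum.

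Retention, the deposited share of transcripts at an intron that keep it, was higher in WBP11_RNAi over much of the table. Its median was 2.78% in WBP11_RNAi and 2.20% in Control, and its 90th percentile 17.9% and 11.6%. Introns kept in at least 10% of transcripts numbered 2967 in WBP11_RNAi and 1909 in Control, and those kept in at least 50% numbered 361 and 170. An intron was called higher or lower where retention differed by at least 10 percentage points, and "rose" and "fell" are used of retention in this sense. By that rule 1457 introns rose, which is 9.07% of those tested, and 272 fell, which is 1.69%. The interval of the difference left out 0 for 1138 of the rises and 128 of the falls. Among the rises the median retention was 26.7% in WBP11_RNAi and 7.46% in Control, and among the falls 7.17% and 22.1%. By construction, falls are possible only where Control kept the intron in at least 10%. With a minimum depth of 50 in both libraries 800 introns rose, 6.84% of 11694, and 102 fell.

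**Figure D1:**
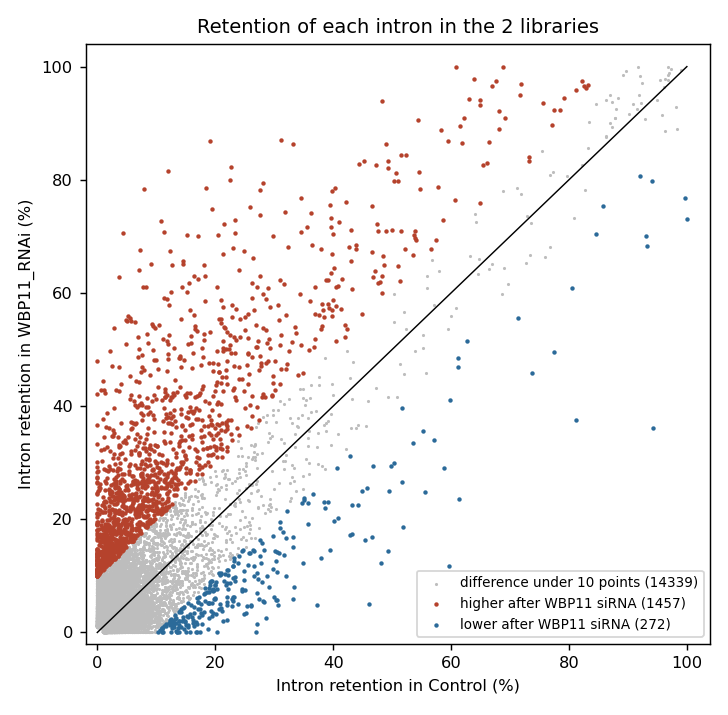
Intron retention in WBP11_RNAi (vertical axis, %) against Control (horizontal axis, %), 1 point for each of the 16068 introns tested. The 1457 rises (red) lie above the line of equality, the 272 falls (blue) below it, and the other introns are grey.

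Close to the limit, the values show how few reads can decide a call. Introns just inside the limit for a rise were in NDRG2, NPL and WDR19, each at 10% in WBP11_RNAi and 0% in Control, from 9 spliced reads and a depth of 1 in WBP11_RNAi. Just outside it were NPR2 with 12.8% in WBP11_RNAi and 2.85% in Control, TECPR1 with 9.99% and 0%, and ECM1 with 38.1% and 28.1%. For the falls, ILKAP with 2.25% in WBP11_RNAi and 12.3% in Control and the noncoding ENSG00000271853 with 13.1% and 23.1% were just inside, and RAB15 with 4.75% and 14.7% and CC2D1B with 16.7% and 26.7% just outside.

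The 15 largest rises among deeply read introns, 1 per gene, came from 71 to 445 bp introns and lay between 47.7 and 69.6 points. In all 15 the depth in the intron was above that of Control and the spliced reads were below it. Of these introns 10 were at most 100 bp long. For this choice an intron needed a depth plus spliced reads of 50 in both libraries, no overlap with an annotated exon and an interval that left out 0.

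The 15 genes are taken here by what each is known to do, which is no test of a theme. ZFYVE19, an adaptor of the abscission checkpoint that delays the final cut between daughter cells, was kept at its last intron in 81.5% in WBP11_RNAi (74.0 to 87.3) and 12.0% in Control (8.03 to 17.5). There the intron depth was 106 in WBP11_RNAi against 21.8 in Control, and 24 reads were spliced against 160. AP1G2, a subunit of a clathrin adaptor, was kept at intron 12 of 20 in 65.1% in WBP11_RNAi and 9.18% in Control, with depths of 116 and 24.9 and 62 and 246 spliced reads. ATP13A1, an ATPase of the endoplasmic reticulum membrane, was kept at intron 5 in 72.6% in WBP11_RNAi and 10.7% in Control, with depths of 100.9 and 8.67. ABCC3, an export pump of organic anions, was kept at its 335 bp intron 14 in 65.6% in WBP11_RNAi and 14.5% in Control.

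MUS81, a nuclease that cuts branched DNA, had the deepest reading of the 15 in WBP11_RNAi at its 74 bp intron 13, where retention was 67.4% in WBP11_RNAi (62.7 to 71.7) and 12.3% in Control (9.18 to 16.3), from depths of 279 and 40.8 and from 133 and 291 spliced reads. RECQL4, a DNA helicase (intron 15, 75 bp), was kept in 75.1% in WBP11_RNAi and 25.9% in Control. PARP10, a mono-ADP-ribosyltransferase (intron 7, 196 bp), was kept in 82.3% in WBP11_RNAi and 22.7% in Control.

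RNF123, a ubiquitin ligase subunit, was kept at its 71 bp intron 14 in 70.6% in WBP11_RNAi and 4.35% in Control, where the depth was 55.2 against 3. CPSF1, a subunit of the factor that recognises the polyadenylation signal, was kept at intron 28 of 37 in 55.9% in WBP11_RNAi and 5.18% in Control, from 121 and 227 spliced reads. SREBF1, the transcription factor of sterol and fatty acid synthesis, was kept at intron 8 in 60.2% in WBP11_RNAi and 12.5% in Control, with depths of 179 and 42.2. SEMA3B, a secreted semaphorin, had the largest loss of spliced reads of the 15 in counts, with 83 in WBP11_RNAi and 630 in Control, and was kept in 54.8% and 6.46%. PLEKHG5 (87.1% in WBP11_RNAi and 31.1% in Control), CDH24 (64.9% and 12.7%), PCNX3 (53.8% and 2.78%) and CRACR2B (72.2% and 21.5%) were the others. A deposited warning did not exclude an intron from the 15. In WBP11_RNAi it stood at ZFYVE19 and ABCC3 (minor isoform) and at CDH24 and PCNX3 (uneven coverage). In Control it stood at ATP13A1, AP1G2 and CRACR2B (uneven coverage).

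The 8 largest falls, chosen in the same way, were between 21.2 and 43.8 points in size, and their introns had a median length of 621.5 bp. In each of them the WBP11_RNAi depth was below that of Control and its spliced reads were above. OGT, the enzyme that attaches O-GlcNAc to proteins, was kept at intron 4 (chrX:71544636-71547906) in 37.5% in WBP11_RNAi and 81.3% in Control, a difference of -43.8 points (-52.2 to -34.3), with depths of 54.6 and 251 and 89 and 54 spliced reads. CCNL1, a cyclin tied to splicing, was kept at intron 5 in 16.9% in WBP11_RNAi and 46.6% in Control. AKAP8L, a nuclear scaffold protein, was kept at intron 9 in 5.84% in WBP11_RNAi and 27.4% in Control, with 350 and 277 spliced reads. RBM28, a nucleolar RNA-binding protein whose intron 7 is printed above, was kept in 5.35% in WBP11_RNAi and 28.3% in Control, with depths of 13.6 and 47.5 and 240 and 119 spliced reads. CXXC1, a CpG-binding subunit of histone methyltransferase complexes, was kept in 5.75% in WBP11_RNAi and 30.4% in Control. DHX34, a helicase of nonsense-mediated decay, was kept at its last intron in 4.83% in WBP11_RNAi and 26.1% in Control, and PHF8, a histone demethylase, at intron 17 in 14.6% and 39.4%. SMPD4BP, a noncoding relative of SMPD4 whose reads may be split with it, was kept in 23.5% in WBP11_RNAi and 61.4% in Control.

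**Figure D2:**
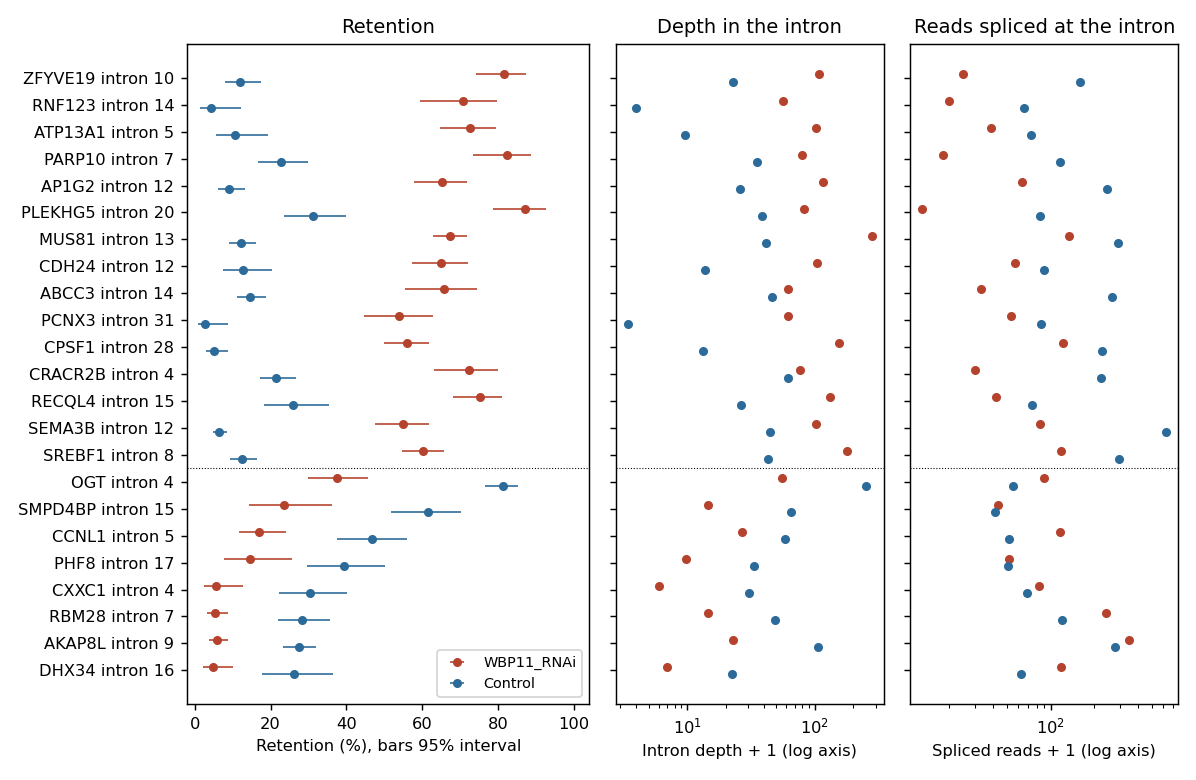
Retention with its 95% interval (left, %), intron depth plus 1 (middle, log axis) and spliced reads plus 1 (right, log axis) for the 15 largest rises (above the dotted line) and the 8 largest falls (below it), in WBP11_RNAi (red) and Control (blue). At every one of the 15 rises depth is higher and spliced reads are lower in WBP11_RNAi, and at every one of the 8 falls the order is the opposite.

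Over all 1457 rises the gain in depth and the loss of spliced reads did not always go together. Scaled to the totals, the median rise had 2.28 times the depth and 0.512 of the spliced reads of Control, against 1.07 and 0.969 over all introns tested. With 1.5-fold as the limit, both moved at 614 introns (42.1%), depth alone was higher at 433 (29.7%), spliced reads alone were lower at 393 (27.0%), and neither passed at 17. Of the 272 falls, 188 had lower depth alone (69.1%), 57 had lower depth with more spliced reads, and 25 more spliced reads alone. Retention is built from these quantities, so their direction at called introns follows largely from the call, and the shares are a description.

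TUBGCP6, a component of the γ-tubulin ring complex needed for centriole duplication, had 16 introns tested, and 4 rose. At intron 18 retention was 75.5% in WBP11_RNAi and 39.5% in Control, with depths of 52.5 and 31.3 and 15 and 48 spliced reads. This intron carries a warning of uneven coverage in WBP11_RNAi. At intron 20 (chr22:50218898-50219067) it was 40.2% in WBP11_RNAi and 6.40% in Control, at intron 17 18.5% and 0.781%, and at intron 6 21.1% and 4.18%. The neighbour intron 23, of 71 bp and also often kept, stood at 41.4% in WBP11_RNAi and 36.1% in Control, a difference of 5.25 points whose interval ran from -8.30 to 18.5. Between introns 17 and 20 lies intron 19, of 78 bp, with 10.7% in WBP11_RNAi and 3.78% in Control. Over the 16 listed introns TUBGCP6 had 941 spliced reads in WBP11_RNAi and 1365 in Control, a scaled ratio of 0.726 (0.667 to 0.789). SNW1, the target of the other siRNA of the study, was tested at its last intron, which overlaps an annotated exon, with 7.58% in WBP11_RNAi and 3.20% in Control.

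Short introns rose most often. Of 834 introns of at most 80 bp, 24.3% rose, against 12.6% of longer ones up to 100 bp. The share was 13.2% above that and up to 200 bp, 12.5% up to 500 bp, 4.74% up to 1000 bp and 2.55% of 4869 introns over 1000 bp. Falls took between 1.28% and 2.55% in each of these classes. Median length was 175 bp for rises and 594 bp for falls, against 406 bp over all introns tested. The depth plus spliced reads behind the ratio were greater at short introns, with a median of 122 in WBP11_RNAi and 148 in Control at introns of at most 80 bp, and 92.1 in WBP11_RNAi and 94.9 in Control over 1000 bp. With a minimum of 50 the shares were 12.8% for introns of at most 100 bp and 1.62% for those over 1000 bp, against 16.4% and 2.55% at the minimum of 10.

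The base composition of the flanking exons, taken from the 50 exon bases on each side, also separated the classes. Where exon GC was over 60%, 13.8% of 4411 introns rose, against 9.50% at 50 to 60%, 4.62% at 40 to 50% and 4.66% at most 40%. The median intron length was 242 bp where exon GC was over 60% and 960 bp where it was at most 40%, so length and GC were set side by side. Introns up to 500 bp with exon GC over 50% rose in 15.5%, and those of that length with less GC in 8.38%. Introns over 500 bp rose in 4.05% with exon GC over 50% and in 2.33% with less.

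**Figure D3:**
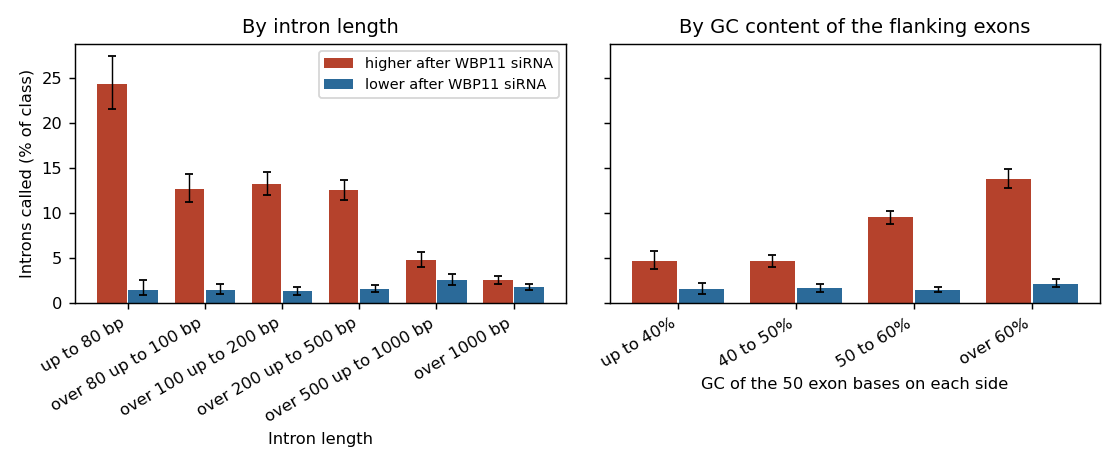
Introns higher (red) and lower (blue) after WBP11 siRNA as % of the introns in each class, by intron length (left) and by GC of the flanking exon bases (right); bars show 95% Wilson intervals, which treat introns as independent. The share higher is 24.3% at up to 80 bp and 2.55% over 1000 bp, and 13.8% at exon GC over 60%.

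Other properties of the intron also went with the share higher. Introns that Control already kept were called more often in both directions. Rises took 39.1% of those over 30%, 28.4% at 10 to 30% and 14.3% at 5 to 10%. They took 4.92% at 1 to 5% and 4.30% at up to 1%. Falls took 20.1% over 30% and 12.8% at 10 to 30%, against 1.69% of all introns, and are not possible under 10%. Median depth plus spliced reads in WBP11_RNAi was 64.9 over 30% and 66.1 at 10 to 30%, against 114.9 at 1 to 5%. First introns rose in 6.15%, last introns in 6.79% and those between in 9.57%. Genes with over 40 introns had 13.8% higher and genes with 1 to 5 introns 6.60%. Introns with the deposited known-exon tag, where exon reads can count as retention, rose in 19.3% of 845, and those without the tag in 8.50%. A warning in either library made little difference, with 9.14% against 8.96%.

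Splice site letters differed between rises and falls. The last bases of the upstream exon were AG, the usual exon end, at 41.7% of 1457 rises and 57.7% of 272 falls, against 48.9% of the introns with an annotated exon end. Read the other way, 7.72% of introns after AG rose, against 10.4% of the others, and 157 of 7860 fell, against 115 of 8198. At introns up to 100 bp the shares that rose were close, 16.1% after AG and 16.9% of the others. Over 100 bp they were 6.02% and 9.21%. With exon GC up to 50% they were 3.46% and 5.66%, and over 50% 9.66% and 12.8%. Intron sequence was held for the 3121 tested introns that lie inside an exon of an annotated transcript, of which 18.8% rose. Of these, 11.8% of the 509 that begin with GTAAG (sense strand, first 5 bases only) rose, against 20.1% of the others, and 5.11% fell, against 2.87%. GTAAG opened 10.2% of the rises, 25.7% of the falls and 16.3% of all introns with sequence, while GTGAG opened 36.3% of the rises and 35.3% of all. The contrast was at introns over 100 bp, with 8.78% of GTAAG introns and 19.1% of the others higher, and was small at up to 100 bp, with 20.3% and 22.5%. Where the exon ended in AG and the intron began with GTAAG, 8 of 138 introns rose and 13 fell. Where it had neither, 270 of 1240 rose and 34 fell. Of the printed introns only the one of RBM28, a fall, begins with GTAAG. At the other end CAG closed 77.8% of the rises and 73.4% of all, and the share of pyrimidines in the 20 bases before the last 3 had the same median, 75%, in rises, falls and all. GC within the intron had a median of 60.9% in rises, 53.7% in falls and 58.0% in all.

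Rises were spread over 886 genes, of which 610 had a single one. Another 149 genes had 2, 63 had 3, and 64 genes had 4 or more and together held 360 of the rises. By the 10-point call, of 3402 genes with at least 2 introns tested, 16 had every one higher. Of 189 genes with 10 or more tested, 50 had none. With 9.07% of all introns higher, these counts do not show whether a gene with a rise changed as a whole. In the intron-rich genes named next, chosen for their rises, most tested introns lay above Control by any amount. This held for 17 of 20 in MAMDC4 and for all 11 in MAN2C1 and in SGSM3, against 59.6% of all introns. In 67 genes at least 1 intron rose and another fell.

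NBEAL2, a protein of platelet granule formation, had the most, with 18 of 30 introns higher and 1 lower. Its median retention over these introns was 14.2% in WBP11_RNAi and 2.91% in Control. At intron 47 retention was 57.9% in WBP11_RNAi and 12.2% in Control, and at intron 31 52.5% and 12.2%. The lower one, intron 37, had 10.5% in WBP11_RNAi and 20.9% in Control, and its interval held 0 (-20.8 to 1.80 points). COL7A1, the collagen of the anchoring fibrils beneath epithelia, had 16 of 29 higher and none lower, with medians of 13.3% in WBP11_RNAi and 2.50% in Control. Its introns held between 10.7 and 52 depth plus spliced reads in WBP11_RNAi and between 35 and 128 in Control. The interval of the difference lay above 0 at 12 of the 16 rises. With a minimum of 50 NBEAL2 had 6 introns higher. Of COL7A1 only intron 110 reached that minimum, with 52 in WBP11_RNAi, and it was not called higher. No MAMDC4 or PEAR1 intron could be tested there, since their highest depth plus spliced reads in WBP11_RNAi were 34.6 and 32.1.

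ACADVL, the very long chain acyl-CoA dehydrogenase of mitochondrial fatty acid oxidation, had 11 of 15 introns higher and none lower at far greater depth, between 406 and 969 in WBP11_RNAi and between 1140 and 2738 in Control. Its 74 bp intron 3 was kept in 38.6% in WBP11_RNAi and 8.57% in Control, and its last intron, of 72 bp, in 24.0% and 3.39%. Intron 10 is often kept in both libraries, with 49.8% in WBP11_RNAi and 53.8% in Control, and did not pass the limit. Spliced reads of ACADVL were 6967 in WBP11_RNAi and 22714 in Control, a scaled ratio of 0.323 (0.314 to 0.332).

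MAMDC4, which encodes a membrane protein with MAM domains, had 15 of 20 introns higher and 2 lower. At intron 18 retention was 68.0% in WBP11_RNAi and 23.0% in Control, and at intron 5 73.0% and 23.3%, from 12.5 to 34.6 depth plus spliced reads per intron in WBP11_RNAi. Both lower ones were near the 5' end, intron 1 with 25.1% in WBP11_RNAi and 49.4% in Control and the 439 bp form of intron 2 with 36.2% and 94.2%. The interval held 0 at intron 1 (-42.1 to 0.699 points) and left it out at that form of intron 2 (-74.4 to -34.4 points). Of its 20 introns 6 overlap an annotated exon, and without these 9 were higher. MAN2C1, the cytosolic alpha-mannosidase, had 8 of 11 higher, SGSM3 7 of 11, PEAR1 8 of 9, ANO9 7 of 10 and PLXNB1, a semaphorin receptor, 8 of 17, none of them with an intron lower. Their median retentions were 28.1% in WBP11_RNAi and 12.1% in Control in MAN2C1, 22.2% and 7.78% in SGSM3, 29.7% and 4.55% in PEAR1, 53.1% and 19.2% in ANO9, and 20.6% and 5.70% in PLXNB1. With a minimum of 50 PLXNB1 had 5 higher and ANO9 1.

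**Figure D4:**
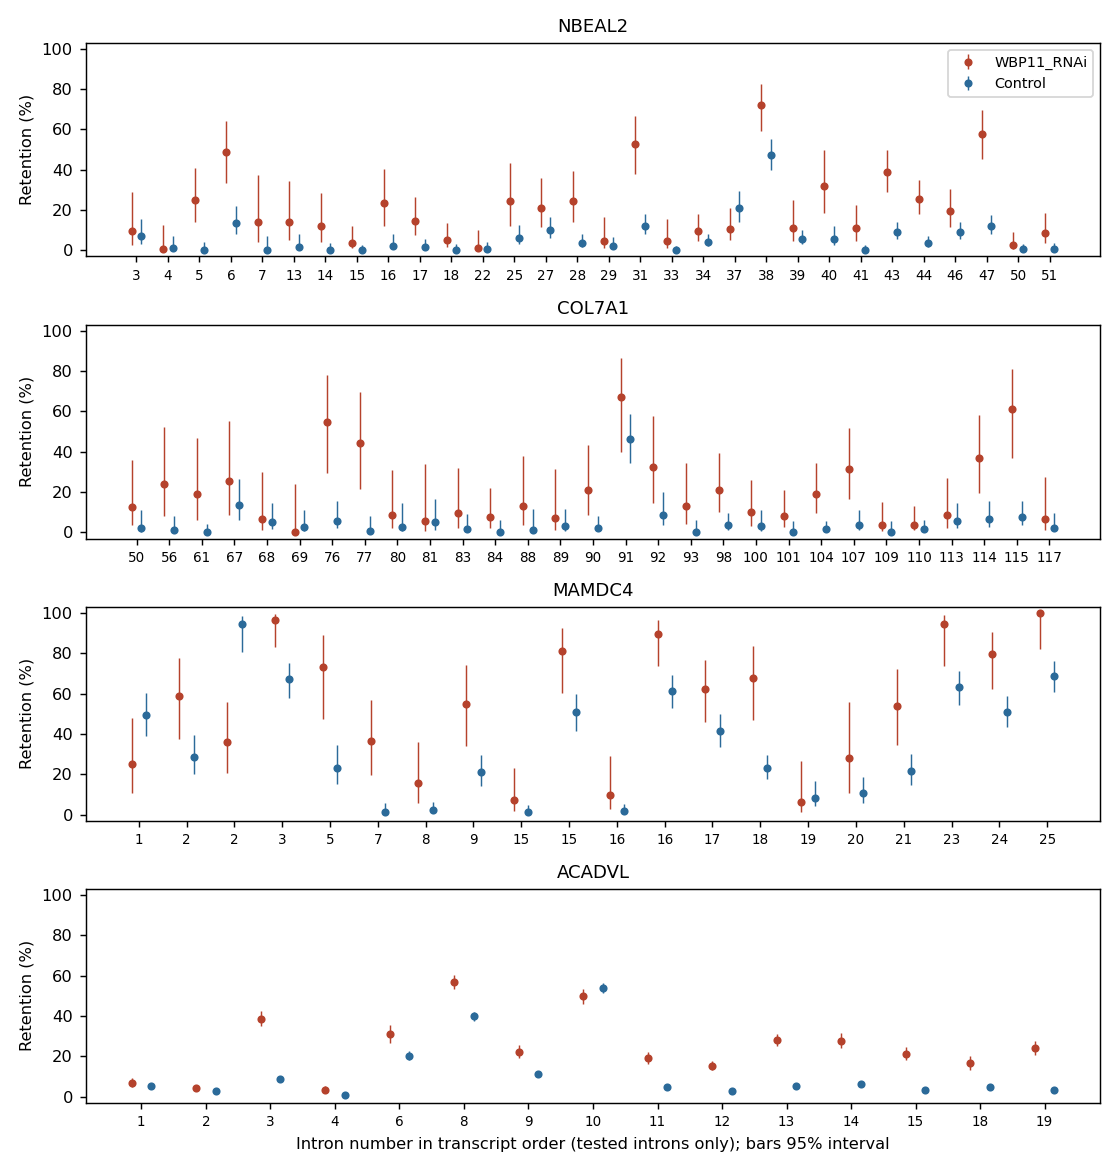
Retention (%) with its 95% interval at each tested intron of NBEAL2, COL7A1, MAMDC4 and ACADVL, in transcript order, in WBP11_RNAi (red) and Control (blue); a number that appears again is another intron form of the same rank. Rises stand beside introns that differ little within each gene, and ACADVL has the narrowest intervals.

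Spliced reads per gene, summed over its listed introns and scaled to the totals, give a measure of the spliced transcript. The same reads stand in the retention ratio, so the measures are not independent. Fewer cells and less RNA per cell cannot be told apart in such bulk libraries. Of 5045 genes with at least 100 reads, 169 were at least 2-fold higher in WBP11_RNAi, which is 3.35%, and 375 at least 2-fold lower, which is 7.43%. The counting interval left out 1 for all of them, which a 2-fold ratio at 100 reads or more makes certain, so it adds no support. The median gene stood at 1.04.

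The 8 largest gains among genes with at least 3 introns and 200 reads lay between 3.02-fold and 3.91-fold. WRAP53, a protein of Cajal bodies and telomerase, had 568 reads in WBP11_RNAi and 153 in Control, a ratio of 3.91 (3.27 to 4.71). DDX23, the tri-snRNP helicase, had 3212 reads in WBP11_RNAi and 972 in Control, a ratio of 3.48 (3.24 to 3.74). DDX46, a helicase that acts with the U2 particle, had 1557 reads in WBP11_RNAi and 490 in Control, a ratio of 3.35. DNA2, a nuclease and helicase of replication, had 240 reads in WBP11_RNAi and 77 in Control, and the chaperone DNAJC2 1712 and 596. ILKAP, a phosphatase, had 1916 reads in WBP11_RNAi and 570 in Control, FRMD4B 450 and 151, and the clock gene PER2 221 and 77. None of these 8 genes had an intron higher in retention, and ILKAP had 1 lower. Most genes had none higher either, 4251 of all 5045.

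The largest losses were in MEGF6, with 17 reads in WBP11_RNAi and 208 in Control, RASIP1, with 25 and 285, and DNHD1, with 23 and 233. PABPC1L, a poly(A)-binding protein, had 73 reads in WBP11_RNAi and 636 in Control, a ratio of 0.121 (0.0935 to 0.154), D2HGDH, the D-2-hydroxyglutarate dehydrogenase, 35 and 304, and HEXD, a hexosaminidase, 25 and 197. PGGHG, a glucosidase, had 154 reads in WBP11_RNAi and 1226 in Control, a ratio of 0.132 (0.111 to 0.157), and MAMDC4 198 and 1591. Of these 8 genes PABPC1L had 1 intron higher in retention, HEXD 2, PGGHG 3 and MAMDC4 15. None was higher in RASIP1 and DNHD1, each with 1 intron tested, of 4 and 10 listed, or in D2HGDH, with 2 tested of 3. No MEGF6 intron reached the depth minimum in both libraries. At tested introns that differed by under 10 points in retention the DNHD1 ratio was 0.451, from 1 intron with 15 reads in WBP11_RNAi and 35 in Control, against 0.104 over its 10 listed introns. The RASIP1 ratio at such introns was 0.178, from 12 reads in WBP11_RNAi and 71 in Control, against 0.0924 over all 4.

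Genes with more introns higher had lower ratios of spliced reads. The median scaled ratio was 1.09 in 4251 genes with no intron higher, 0.802 in 517 genes with 1, 0.626 in 209 genes with 2 or 3 and 0.484 in 64 genes with 4 or more, and the other 4 genes had no intron tested. A risen intron itself tends to lose spliced reads, so the other introns of the same genes were also summed. There the medians were 1.097, 0.888, 0.705 and 0.548. At those other introns 3.78% of genes with no intron higher were 2-fold lower, 9.86% with 1, 24.6% with 2 or 3 and 45.0% with 4 or more, against 3.62%, 2.82%, 0.559% and 0% that were 2-fold higher. With introns of depth 50 or more the medians were 1.11, 0.890, 0.778 and 0.624. These are descriptions over genes of 1 pair of libraries.

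Genes of the U4/U6.U5 tri-snRNP were measured as a list. Of 24 genes of this list 12 had a ratio, and 8 of these were at least 2-fold higher in spliced reads, against 3.35% of all genes tested, and none was 2-fold lower. PRPF3, a U4/U6 protein, had 875 reads in WBP11_RNAi and 200 in Control, a ratio of 4.61, and its partner PRPF4 had 373 and 142, a ratio of 2.77 (2.27 to 3.38). PPIH, a cyclophilin bound to both, had 384 reads in WBP11_RNAi and 143 in Control. PRPF6, which bridges U5 and U4/U6, had 1772 reads in WBP11_RNAi and 843 in Control, a ratio of 2.21 (2.04 to 2.41), and SART1 1745 and 900. SART3, which helps to reassemble U4 with U6, had 598 reads in WBP11_RNAi and 308 in Control. USP39, of tri-snRNP assembly, had 87 and 37 reads from its last intron alone, which overlaps an annotated exon and where retention was 49.6% in WBP11_RNAi and 77.5% in Control. SNRNP200, LSM7, EFTUD2 and CD2BP2 had ratios of 1.54, 1.43, 1.41 and 0.922 and did not pass. None of the 32 tested introns of the list rose and 1 fell, the one in USP39, against 9.07% and 1.69% of all introns tested. The median ratio of the 12 genes was 2.13, against 1.04 over all genes, and with a 1.5-fold limit 9 of them passed and with a 3-fold limit 2.

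**Figure D5:**
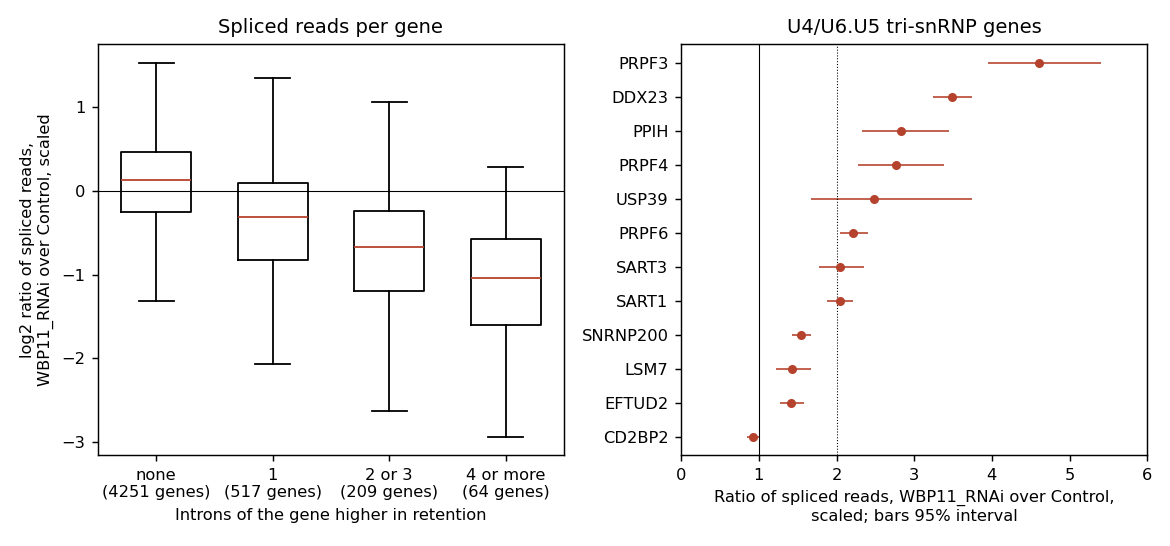
Left: log2 ratio of spliced reads per gene, WBP11_RNAi over Control, scaled to the totals, by the number of introns higher in retention; boxes give the quartiles, red lines the medians, and whiskers reach the last gene within 1.5 times the box. Right: the ratio with its 95% interval for 12 tri-snRNP genes, with lines at 1 and 2; 8 lie at or above 2.

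Gene lists gave shares of introns higher that are read here as counts beside the background, without a test. Cell adhesion, laminin and collagen genes had 42 of 202 introns higher in 9 genes and 2 lower, 20.8% against 9.07% of all introns, and 6 of 30 genes were 2-fold lower in spliced reads, against 7.43% of all genes tested. COL7A1 held 16 of the 42, and with a minimum of 50 the list had 23. LAMB2, a laminin beta chain, was kept at intron 28 in 70.0% in WBP11_RNAi and 29.8% in Control, had 7 introns higher, and had 2030 spliced reads against 7347. LAMA5, a laminin alpha chain, was kept at intron 66 in 39.9% in WBP11_RNAi and 8.19% in Control and had 4902 and 10837 spliced reads, and AGRN, the proteoglycan agrin, 5152 and 14999 with 5 introns higher. ITGA3, an integrin that binds laminin, had 4079 reads in WBP11_RNAi and 11142 in Control and 3 introns higher. The LAMB2 fall was at its first intron, with 76.7% in WBP11_RNAi and 99.7% in Control.

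Trafficking and nutrient signalling lists had between 9.26% and 12.9% of their introns higher, against 9.07% of all introns, and the vesicle and lysosome lists lay near that background. Autophagy and mTOR genes had 18 of 139 higher (12.9%) in 7 genes and 1 lower, in TSC2 (5.62% in WBP11_RNAi and 18.3% in Control), and their rises included ATG2A, a lipid transfer protein (37.7% and 0.914%), and NPRL2, a GATOR1 subunit (43.4% and 14.05%, an intron that overlaps an annotated exon). RICTOR, of mTOR complex 2, had 356 spliced reads in WBP11_RNAi and 164 in Control. COPI, COPII and clathrin genes had 13 of 108 higher (12.0%), with AP1G2 and AP5Z1 (53.9% in WBP11_RNAi and 21.7% in Control), and 1 lower, in SEC31B (2.79% and 16.1%). CLTCL1, a clathrin heavy chain, was kept at intron 25 in 78.4% in WBP11_RNAi and 8% in Control, from 4 and 23 spliced reads. Vesicle tethering and Golgi genes had 10 of 108 higher (9.26%) and 4 lower. GOLGA3 was kept at an intron of a noncoding transcript in 74.3% in WBP11_RNAi and 31.8% in Control, EXOC7, an exocyst subunit, at intron 10 in 40.5% and 7.49%, and VPS51 at intron 3, which overlaps an annotated exon, in 27.4% and 0.0319%, while GOLGA1 stood at 12.3% and 48.2% at intron 9. V-ATPase and lysosome genes had 8 of 77 higher (10.4%), led by IDUA, the iduronidase (44.2% in WBP11_RNAi and 7.10% in Control), and 1 lower, in NPC1, the cholesterol transporter (1.27% and 13.9%). GAA, the lysosomal alpha-glucosidase, had 968 spliced reads in WBP11_RNAi and 3242 in Control with no intron higher. With a minimum of 50 the introns higher were 8 for autophagy and mTOR, 8 for the coats and 2 for the lysosome.

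DNA repair and centriole genes had their rises in few genes, and the share over all introns was 9.07%. Mismatch and excision repair genes had 10 of 82 higher (12.2%) in 3 genes, among them MLH3, a mismatch repair protein (61.7% in WBP11_RNAi and 26.2% in Control), and MUTYH, the adenine glycosylase (40.6% and 18.9%). With a minimum of 50 this list had 6. In the γ-tubulin and centriole list 8 of 56 rose (14.3%) and none fell. Of these rises 4 were in TUBGCP6, which was named in advance. The others were in TUBG2 (51.9% in WBP11_RNAi and 29.1% in Control at intron 4) and SASS6, the cartwheel protein (23.4% and 2.83%, overlapping an annotated exon). CENPJ had 548 spliced reads in WBP11_RNAi and 265 in Control. Sterol and fatty acid genes had 6 of 60 higher (10%, near the share over all introns), in SREBF1, ACSS2 (27.1% in WBP11_RNAi and 8.59% in Control) and MVD (29.2% and 13.98%). FDPS, the farnesyl diphosphate synthase, had 886 spliced reads in WBP11_RNAi and 2526 in Control with no intron higher.

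Further lists had shares under the 9.07% of all introns, from 8.33% for WBP11 partners down to none. WBP11 partners and protein phosphatase 1 genes had 2 of 24 higher, both in PPP1R12C (26.1% in WBP11_RNAi and 5.69% in Control at the larger). Chromatin remodelling genes had 5 of 105 higher, led by BPTF (23.4% in WBP11_RNAi and 9.08% in Control) and TRRAP (13.6% and 0%). They had 1 lower, in ARID2 (1.99% in WBP11_RNAi and 14.4% in Control), where the interval held 0 (-38.1 to 3.72 points). Notch and Wnt genes had 3 of 68, led by RNF43, a ubiquitin ligase for Wnt receptors (41.6% in WBP11_RNAi and 16.6% in Control), and receptor tyrosine kinase and MAPK genes 4 of 94 and 1 lower, led by EPHB3 (38.1% and 15.05%) and ERBB3 (26.6% and 6.13%), both receptor kinases. MAPK7 was the fall, with 16.9% in WBP11_RNAi and 33.2% in Control. MST1R, another receptor kinase, was kept at intron 6 in 26.8% in WBP11_RNAi and 9.03% in Control and had 531 and 1861 spliced reads. Heat shock and unfolded protein genes had 1 of 45, in SYVN1 (12.9% in WBP11_RNAi and 2.42% in Control). No intron rose among 63 of nuclear pore genes, 42 of nonsense-mediated decay genes and 14 of the minor spliceosome. Of the decay genes' introns 2 fell, both in DHX34. Of the minor spliceosome 1 fell, in RNPC3 (0% in WBP11_RNAi and 12.5% in Control, from 25 and 18 spliced reads), where the interval held 0 (-32.8 to 3.30 points). NUP160, of the nuclear pore, had 1293 spliced reads in WBP11_RNAi and 540 in Control, and RBM8A, of the exon junction complex, 1622 and 811. Of 11 introns of colorectal epithelial markers none was called. Over the 7 listed markers the median scaled ratio of spliced reads was 1.02. CLDN7, a claudin, and CDH17, an intestinal cadherin, were 2-fold lower, with ratios of 0.372 and 0.488. KRT18, CEACAM5, CDH1, KRT19 and ELF3, an epithelial transcription factor, had ratios of 0.815, 1.02, 1.04, 1.07 and 1.55.

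Splicing from 1 end of an intron to its other end was followed by the exact share, the exact spliced reads at both ends over the larger spliced count at either end. A read that joins an end to any other site lowers it. The share therefore does not tell an unannotated end from a skipped exon or another annotated isoform. It was computed at 14616 introns with 20 spliced reads in both libraries. It was at least 10 points lower in WBP11_RNAi at 375 introns (2.57%) and higher at 141 (0.965%), and the interval left out 0 at 325 and 99 of these. Introns with an exact share under 90% numbered 818 in WBP11_RNAi and 521 in Control.

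Among introns with 100 spliced reads, METTL26 intron 4 (chr16:634798-634888, 91 bp) had the largest loss and was spliced exactly by 162 of 593 reads in WBP11_RNAi and 386 of 466 in Control, 27.3% and 82.8%, a difference of -55.5 points (-60.2 to -50.3). Its retention was 3.06% in WBP11_RNAi and 3.13% in Control. SPINT1, a protease inhibitor of epithelia, had 1521 of 2443 reads and 1829 of 1867 at intron 6, 62.3% in WBP11_RNAi and 98.0% in Control. PABPC4, a poly(A)-binding protein, had 53.6% in WBP11_RNAi and 87.9% in Control at intron 11, N4BP2L2 42.7% and 76.4%, PSMG1, a proteasome chaperone, 54.2% and 87.9%, and DOCK5 58.5% and 91.8%. The largest gains were in POFUT2, the O-fucosyltransferase, with 99.2% in WBP11_RNAi and 68.1% in Control, KIF23, a kinesin of cytokinesis, with 91.0% and 60.7%, and NDUFAF5, an assembly factor of complex I, with 79.2% and 55.2%. BRD8 had 80.8% in WBP11_RNAi and 57.4% in Control, ZBTB7B 90.2% and 68.2%, and ACTR5 92.4% and 71.8%. All of these 12 introns stayed within 10 points in retention. Each carried the deposited minor isoform warning in the library with the lower exact share.

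Over the whole table a lower exact share was more frequent at introns that also rose in retention, 69 of 999 (6.91%), than at the others, 306 of 13617 (2.25%). These 69 are a small part of the 375. Introns with a lower exact share had a median length of 693 bp and those with a higher one 1814 bp, against 413 bp over all introns with a value, so the length pattern of retention was not that of the exact share.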

How the data were processed

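PolyA RNA of DLD-1 cells was sequenced, and each deposited table compares 2 libraries with IRFinder on STAR alignments to hg38, per the file headers. The submitters' processing notes also name RSEM, bedtools and hg38, with no version in those sources. Retention is a deposited fraction per intron, depth a deposited coverage signal, and spliced and exact spliced reads a deposited count per intron. Depth is not whole and the counts are, and no header names a scaling between libraries. The deposited ratio differed from depth over depth plus spliced reads by over 0.01 at 749 tested introns in WBP11_RNAi and 354 in Control, and by over 0.1 at 26 and 1. The output is directional, per the file headers. The deposited p-values were not used.

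Every listed intron reached 1% retention in at least 1 library and had no warning in at least 1. Introns were matched to GENCODE 29 (16619 of 16629), which gave numbers, regions, exon ends and, for 3121 tested introns, sequence. Intron depth plus spliced reads in a library stood for the number of observations in Wilson and Newcombe 95% intervals. Ratios of spliced reads were scaled by the totals of listed introns, which are part of the library, with exact Clopper-Pearson intervals. Reads are not independent molecules, nor are the introns of 1 gene. No model was fitted, since each group had 1 library. Python 3.11.15, pandas 2.3.3, scipy 1.17.1 and statsmodels 0.14.6 were used, and the calls were tested on simulated data.

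The introns, the 21 gene lists and the rules for naming were chosen with earlier results of these data known. Named were WBP11, SNW1 and TUBGCP6, the 15 largest rises and 8 largest falls, the 8 genes with most introns higher and the 5 with the largest share, 8 gains and 8 losses of spliced reads, 6 introns each way in exact share, and up to 3 rises and 1 fall per list, of which some are not reported here. List genes 2-fold changed in spliced reads were named after their values were seen, as were the single introns of intron-rich genes. The rule of 10 introns for the largest share was applied to tested introns. Alternatives were other limits, depth minimums, scalings, pseudocounts, 1 intron per gene, and leaving out warnings or known exons.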

Additional observations from a re-analysis of the deposited data

How the results depend on the processing

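No paired analysis was possible because each group is 1 library. Limits of 5 and 20 points gave 2798 and 567 introns higher in retention and 869 and 56 lower, against 1457 and 272. A depth minimum of 50 gave 800 and 102, leaving out introns with a warning 608 and 98, and 1 intron per gene, the most deeply read, 308 and 98. These also test fewer introns. As shares of the introns tested they were 6.84% and 0.872%, 8.96% and 1.44%, and 5.38% and 1.71%, against 9.07% and 1.69%. The share higher was thus lower at a depth of 50 and with 1 intron per gene. Requiring an interval that leaves out 0 gave 128 lower. Fold limits of 1.5 and 3 gave 767 and 12 genes higher in spliced reads and 850 and 125 lower, against 169 and 375. A minimum of 500 reads gave 99 higher and 159 lower, and the intron with the most reads 249 lower. For the exact share, 20 points gave 33 introns higher and 116 lower, and 100 spliced reads 28 and 91. The share higher among introns up to 100 bp was 12.8% at a depth of 50, 7.68% at 20 points and 13.0% with 1 intron per gene, and over 1000 bp 1.62%, 0.657% and 1.63%. The other 22 alternatives for these counts and shares stayed within 1.5 times or within their interval, and a reversal was not defined for them. Of the values of single introns, genes and lists 132 stayed and 19 moved. None of the single introns or 2-fold changed genes reversed in direction. Their alternatives reuse the same reads and could hardly reverse changes of that size, so this adds no support. Alternatives for gene lists, intron-rich genes, named genes' spliced reads, tri-snRNP genes, other introns and the quotient of depth and spliced reads in place of the deposited ratio were chosen after seeing the data. At 10 observations 1 unspliced read is 10 points.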
